A study of Mus musculus with 5 samples.

Results

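The Ets and Ikaros family loci analysed here were those of *Ets1*, *Fli1*, *Elf1*, *Gabpa*, *Ikzf1* and *Ikzf3*. All peaks whose summit fell in the gene body or within 50 kb on either side were taken, on the mm9 assembly (NCBIM37). This gave 154 of the 56641 deposited peaks, 80 from the WT list and 74 from the dKO list. The data were DNase-seq of naïve CD8+ T cells, which maps open chromatin by sequencing fragments that DNase I releases. WT mice (*Tcf7*+/+ and *Lef1*+/+, 3 replicates) were compared with dKO mice (*Tcf7* fl/fl and *Lef1* fl/fl, 2 replicates), and both groups carried the *hCD2-Cre* transgene and a *Rosa26* GFP reporter. *hCD2-Cre* is most active in mature T cells, and GFP marked the cells in which Cre had acted. The mice were 6 to 12 weeks old, of both sexes and on a C57BL/6 background. The sorted splenocytes were GFP+ TCRbeta+ CD62Lhi CD44lo-med CD8+, and the question was which chromatin stays open when Tcf1 and Lef1 are absent.

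Ets factors share a winged helix-turn-helix domain that binds a GGAA core. Ets1, Fli1, Elf1 and GABPα, the DNA-binding subunit of GABP encoded by *Gabpa*, act widely in lymphocytes, Ets1 in T cell survival and GABPα in expression of the IL-7 receptor. Ikaros (*Ikzf1*) and Aiolos (*Ikzf3*) are zinc finger factors that bind GGGAA sequences, join the NuRD remodelling complex and steer lymphocyte development. Tcf1 (*Tcf7*) and Lef1 are HMG-box factors that bind the core ATCAAAG, read on the other strand as CTTTGAT.

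Selected sequences of the comparison are shown as 201 bases centred on the summit, on the plus strand of mm9. They are 4 intronic sites with the lower depth-scaled signal in dKO cells, the *Ets1* site with the higher one, and the only 2 sites of the 6 loci with the Tcf/Lef core. Other sites with a higher signal in dKO are not printed at this length. Some of them also held matches, such as an Ikaros match in *Ikzf1* intron 3, 33.8 kb from the TSS, and others held none. The printed matches therefore do not separate lower from higher sites. Capitals mark matches to the Tcf/Lef core ATCAAAG, the Ets sequences CCGGAAG or CAGGAAG, the Ikaros sequence TGGGAA and the Runx sequence TGTGGTT, on either strand. The Ets and Ikaros sequences share GGAA but differ in the base before it, so that no match counts for both.
Fli1 intron 1, lower in dKO, chr9:32326001-32326201: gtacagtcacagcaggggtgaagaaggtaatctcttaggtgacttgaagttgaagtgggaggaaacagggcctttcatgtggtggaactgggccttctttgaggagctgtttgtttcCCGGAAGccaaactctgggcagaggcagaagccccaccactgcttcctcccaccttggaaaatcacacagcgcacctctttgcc
Ikzf1 intron 3, lower in dKO, chr11:11626276-11626476: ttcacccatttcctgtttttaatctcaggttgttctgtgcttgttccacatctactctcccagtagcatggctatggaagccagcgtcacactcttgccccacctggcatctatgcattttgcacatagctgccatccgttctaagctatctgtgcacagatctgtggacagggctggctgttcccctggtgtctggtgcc
Ikzf3 intron 3, lower in dKO, chr11:98358721-98358921: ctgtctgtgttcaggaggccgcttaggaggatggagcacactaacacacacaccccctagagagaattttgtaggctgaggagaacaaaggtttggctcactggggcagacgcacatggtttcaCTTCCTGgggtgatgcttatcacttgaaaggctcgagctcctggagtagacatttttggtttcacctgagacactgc
Elf1 intron 3, lower in dKO, chr14:79962708-79962908: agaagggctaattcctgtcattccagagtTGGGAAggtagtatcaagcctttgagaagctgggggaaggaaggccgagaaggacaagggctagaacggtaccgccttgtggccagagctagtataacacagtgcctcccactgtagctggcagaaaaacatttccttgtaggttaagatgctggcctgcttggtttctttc
Ets1 upstream, higher in dKO, chr9:32401925-32402125: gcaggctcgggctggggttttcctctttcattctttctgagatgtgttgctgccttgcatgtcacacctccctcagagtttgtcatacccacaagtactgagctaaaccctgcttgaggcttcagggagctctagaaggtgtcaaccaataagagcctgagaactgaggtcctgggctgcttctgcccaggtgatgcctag
Fli1 intron 1, shared, with ATCAAAG, chr9:32295038-32295238: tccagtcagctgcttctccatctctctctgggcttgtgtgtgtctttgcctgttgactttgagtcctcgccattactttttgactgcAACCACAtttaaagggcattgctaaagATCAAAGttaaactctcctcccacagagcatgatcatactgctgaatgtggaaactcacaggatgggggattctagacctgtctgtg
Fli1 intron 1, dKO-only, with ATCAAAG, chr9:32345863-32346063: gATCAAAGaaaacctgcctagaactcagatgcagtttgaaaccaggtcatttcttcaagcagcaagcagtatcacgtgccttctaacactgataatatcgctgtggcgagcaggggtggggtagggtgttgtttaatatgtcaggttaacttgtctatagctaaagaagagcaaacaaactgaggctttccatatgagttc

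The site at the *Gabpa* start site was also among those with the higher depth-scaled signal in dKO cells. It held 3 Ets matches, at -85, 2 and 87 bases from its summit, and each is shown with 9 bases on either side.
Gabpa start site, Ets match 1, chr16:84835095-84835119: accgttctaCTTCCGGccctggctc
Gabpa start site, Ets match 2, chr16:84835182-84835206: ctcaccggaCAGGAAGcgcctcgaa
Gabpa start site, Ets match 3, chr16:84835267-84835291: gggtaagtgCTTCCGGgtccctcag

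The files hold 1 list per genotype, called by the authors on pooled replicates, so no spread between replicates and no test between genotypes could be given. WT rested on 83923734 fragments and dKO on 62242963. A ChrAcc site was a peak with q under 0.05, p under 1e-05 and a fold enrichment over local background of 4 or more, and sites that overlapped by at least 1 bp were shared. Levels were compared as the percentile of fold enrichment within each list (100 being the highest), and as the pileup, which counts the fragments that span the summit. Each list has its own summit, so the WT and dKO values of a shared site can come from different positions. The dKO/WT ratio of pileup per 1000000 fragments was divided by its median over all 20533 shared sites, which was 0.912 (-0.13 on the log2 scale). This relative ratio is given with its 95% exact binomial interval, which covers counting error only. In bulk cells, a site open in fewer cells and a site less open in each cell cannot be told apart. Loss of *Tcf7* and *Lef1* themselves was not checked here, since peak lists do not measure their RNA.

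Sites lay within 1 kb of a transcription start site (TSS) of 7 of 8 T cell markers in WT and 6 of 8 in dKO cells, with *Thy1* in neither. Both CD8 markers and all 4 naïve T cell markers had such a site in both lists. No site lay at the 4 B cell or the 2 NK cell markers. Of 5 myeloid markers *Itgam* alone had one, at percentile 34.8 of WT and not in dKO.

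At the 6 loci, 73 of 28472 WT sites and 69 of 24363 dKO sites met the criteria, while 7 WT and 5 dKO peaks missed them. Merged, they formed 84 sites, of which 55 were shared, 16 were WT-only and 13 were dKO-only. Thus 21.9% of the WT sites were WT-only (95% Wilson interval 14.0 to 32.7), beside 27.6% of all WT sites, and 18.8% of the dKO sites were dKO-only (11.4 to 29.6), beside 14.4% of all dKO sites. Both intervals hold the share over all sites, but this depends on the peaks used. With the top 20000 peaks per list by -log10 p, 20 of 58 dKO sites were dKO-only (34.5%, 23.6 to 47.3), beside 18.9% of all, and the WT-only share was 24.5% (14.6 to 38.1), beside 19.7%. In the lists as deposited, the WT-only share was 18.75% (11.7 to 28.7), beside 30.1%, and the dKO-only share 13.5% (7.51 to 23.1), beside 13.96%.

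*Ets1* had 16 WT and 16 dKO sites, of which 3 were WT-only and 4 dKO-only. *Fli1*, its neighbour on chromosome 9, had 14 and 15, with 2 WT-only and 4 dKO-only. *Elf1* had 11 and 12, with 2 in each list alone, and *Gabpa* had 2 shared sites and no other. *Ikzf1* had 16 and 15, with 3 WT-only and 2 dKO-only. *Ikzf3* had 15 WT and 10 dKO sites, with 6 WT-only and 1 dKO-only, so it was the locus with the widest gap between lists. Its WT-only share was 40.0% (19.8 to 64.3), an interval that still holds the 27.6% of all WT sites. The windows of *Ets1* and *Fli1* share 1 site, counted once in the totals. It lay 1.28 kb inside the upstream limit of the *Fli1* window, and the nearest WT site beyond that limit lay 0.58 kb outside.

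**Figure D1:**
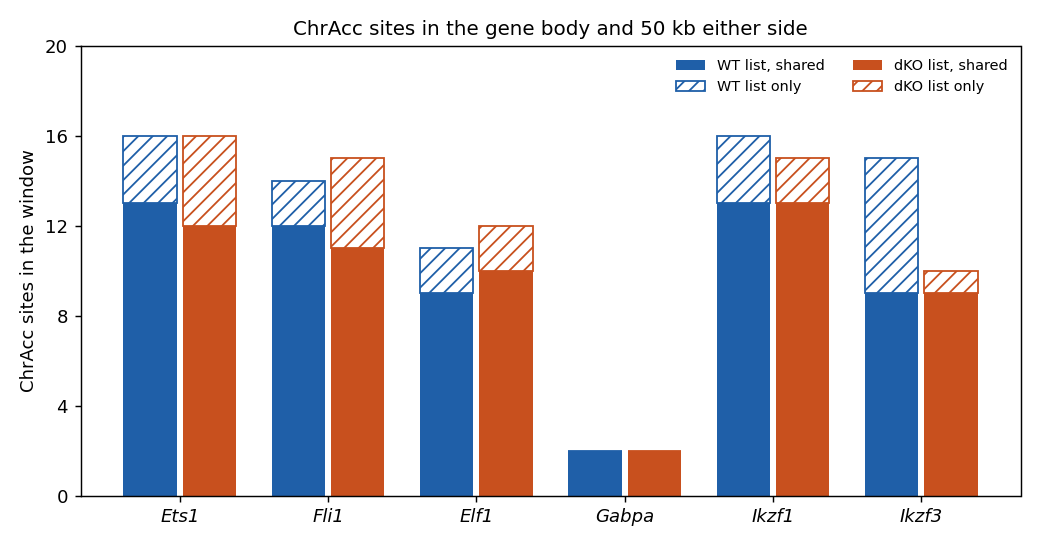
ChrAcc sites (y axis, number of sites) in the gene body and 50 kb either side of each gene (x axis) in the WT list (blue) and the dKO list (orange), with filled bars for sites shared with the other list and hatched bars for sites of that list alone. *Ikzf3* has 15 WT and 10 dKO sites, and the other 5 loci differ between lists by at most 1 site.

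All loci but *Gabpa* were rich in sites. Over 22208 protein-coding genes, the same windows held a median of 3 WT and 2 dKO sites. Of these genes, 99.4% had fewer WT sites than *Ets1* or *Ikzf1*, 99.2% fewer than *Ikzf3*, 98.7% fewer than *Fli1* and 95.7% fewer than *Elf1*, but 35.8% fewer than *Gabpa*. Per kb of window, which corrects for long genes, the density was above that of 95.3% of genes at *Ikzf1*, 94.8% at *Ikzf3*, 91.8% at *Ets1*, 88.1% at *Fli1*, 83.3% at *Elf1* and 41.9% at *Gabpa*. These sites were mostly distal. Of the 84, 54 lay in gene bodies and 30 in the flanks, 6 lay within 1 kb of a TSS of their own gene, 8 within 1 kb of that of another gene, and 70 farther away. Within 1 kb of any TSS lay 14 of 73 WT sites (19.2%, 11.8 to 29.7), beside 41.3% of all WT sites, and 17.4% of dKO sites (10.2 to 28.0), beside 43.3%. For both lists the interval lies below the share over all sites, but it treats sites clustered in 6 windows as independent.

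The sites were of moderate strength. Their median fold enrichment was 7.43 in WT and 7.19 in dKO cells, beside 8.44 and 8.48 over all sites, although their median pileup, 56 and 42 fragments, was close to the 57 and 43 over all sites. The local background, computed as (pileup + 1)/fold enrichment - 1, had a median of 7.74 fragments at the 6 loci against 5.69 over all sites in WT, and of 4.95 against 3.94 in dKO. At *Ets1* it was 9.49 in WT and 5.56 in dKO. These pileups and backgrounds are not scaled to depth, and the WT pool was 1.35 times as deep as the dKO pool. At the same pileup a higher background gives a lower fold enrichment.

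**Figure D2:**
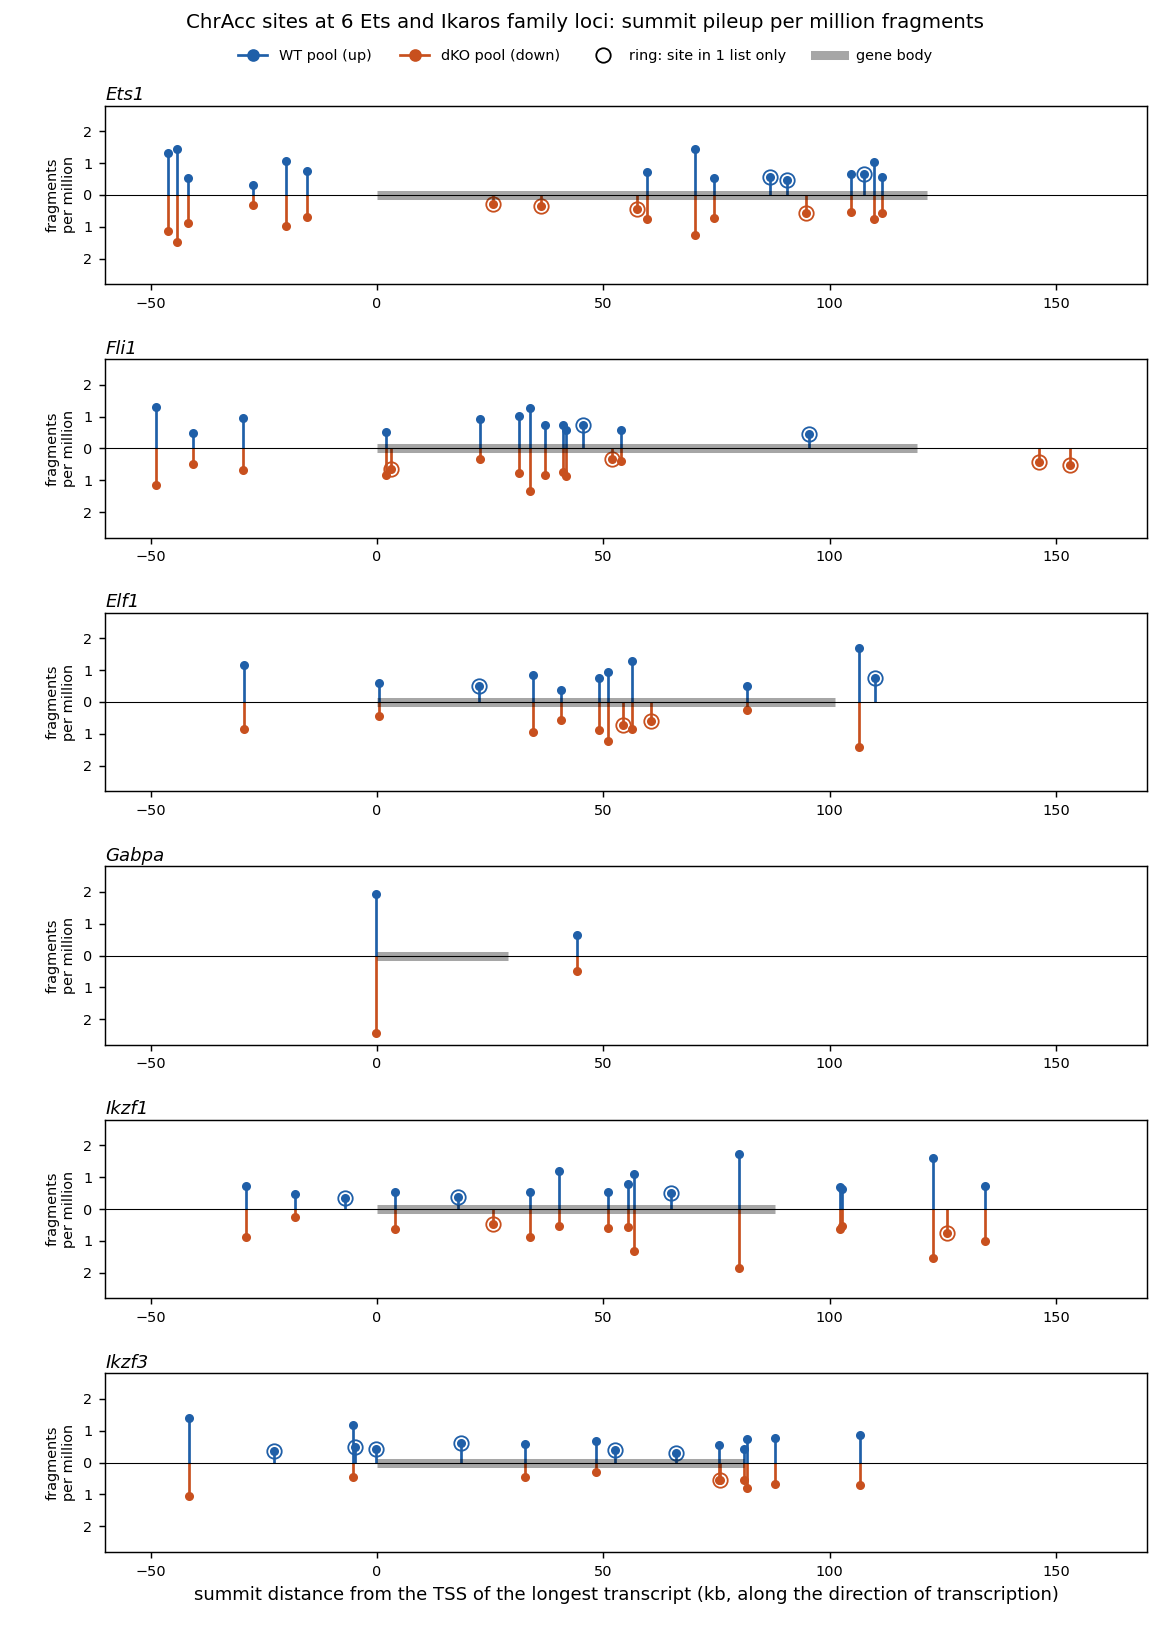
Summit pileup per 1000000 fragments (y axis, WT upwards in blue, dKO downwards in orange) against the distance of the summit from the TSS of the longest transcript (x axis, kb along the direction of transcription) for each of the 6 loci. Rings mark sites of 1 list only and the grey bar is the gene body. The *Gabpa* start site has the highest signal, 1.93 in WT and 2.44 in dKO, while sites of 1 list only are low, up to 0.74.

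At the genes' own start sites the values were mostly low in rank. *Ets1* had a site at 155 bp from the TSS of its shorter transcripts, inside intron 3 of the longest one (chr9:32503405-32503718). It had 60 fragments in WT and 48 in dKO cells, at percentiles 33.1 and 42.4, with a relative ratio of 1.18 (0.79 to 1.76). No site of either list lay within 1 kb of a *Fli1* TSS. The nearest shared site, 2.02 kb into intron 1, is described with the intronic sites. *Elf1* had a site in exon 1 that also lies 354 bp from the TSS of *Wbp4* (chr14:79881299-79881619, 49 and 28 fragments, percentiles 29.8 and 18.9) and another at an internal TSS (chr14:79915297-79915568, 72 and 59 fragments, percentiles 58.1 and 62.8). The intervals of both relative ratios held 1, with 0.85 (0.51 to 1.37) and 1.21 (0.84 to 1.73).

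*Gabpa* was the exception in level. Its start site, 18 bp from the TSS and also inside *Atp5j*, a gene for a subunit of ATP synthase (chr16:84835034-84835614), had 162 fragments in WT and 152 in dKO cells. Its percentile was 80.1 in the WT list and 90.7 in the dKO list, and the relative ratio was 1.39 (1.10 to 1.74). Its flank held the other site of this locus, 44.2 kb past the TSS, which went the other way in rank, from 59.4 to 36.8, with 54 and 30 fragments and a relative ratio of 0.82 (0.51 to 1.31).

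Among the own start sites found, *Fli1* having none, those of *Ikzf1* and *Ikzf3* had the lowest percentiles of fold enrichment. By pileup in dKO, *Ikzf1* stood above the *Elf1* exon 1 site, with 38 against 28 fragments. At *Ikzf1* the site 134 bp from a TSS (chr11:11589962-11590173) had 46 and 38 fragments and had percentiles of 3.98 and 9.77, with a relative ratio of 1.22 (0.77 to 1.92). At *Ikzf3* the site 2 bp from a TSS (chr11:98407221-98407414) had 36 fragments at percentile 2.33 in WT and no overlapping peak in the dKO list, so it was WT-only at a level just above the criteria.

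By percentile of fold enrichment, the highest sites lay away from the genes' own start sites and were shared. Among the gene bodies it was intron 7 of *Ikzf1* (chr11:11666197-11666437), with 144 fragments in WT and 116 in dKO, percentiles 94.2 and 97.3 and a relative ratio of 1.19 (0.92 to 1.53). In the *Ets1* gene body the strongest site was in intron 3 at 70.2 kb (121 and 79 fragments, percentiles 71.2 and 63.9), and it held both an Ets and an Ikaros match. Outside the *Ets1* gene body it was the site 44.2 kb upstream (120 and 91 fragments, 73.1 and 86.2). In the *Fli1* gene body, the site with the highest rank in dKO lay in intron 1 at 33.8 kb (106 and 83 fragments, 43.1 and 46.6). The site 48.7 kb upstream of *Fli1*, shared with the *Ets1* window, was its strongest flanking site in dKO, with 110 and 71 fragments at 68.4 and 69.4. The intervals of all of these relative ratios held 1.

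Several of the strongest flanking sites were start sites of neighbours. In the *Elf1* window, a site 78 bp from the TSS of *Gm5465* (chr14:79851441-79851732) ranked highest of the 84 sites in WT, at 97.6, and at 82.3 in dKO cells, with 98 and 53 fragments. The start site of *Sugt1*, 106 kb past the *Elf1* TSS, had 143 and 87 fragments at 74.4 and 79.2. In the *Ikzf1* window the start site of *Fignl1* had 135 and 96 fragments and ranked at 90.7 in both lists. In the *Ikzf3* window the start site of *Ormdl3*, a regulator of sphingolipid synthesis, had 118 and 66 fragments and ranked at 92.3 in both. The site 29.5 kb upstream of *Fli1* (chr9:32378291-32378536) was distal, held an Ets match, had 81 and 42 fragments, and went from percentile 90.9 in WT to 65.3 in dKO. The intervals of these 5 relative ratios held 1, the lowest ratio being 0.77 (0.52 to 1.13) at the *Fli1* site.

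Across the 55 shared sites, 25 ranked higher in WT, which is 45.5% (33.0 to 58.5), beside 58.7% of all shared sites. When sites were ranked by -log10 p instead, 31 of 55 (56.4%) ranked higher in WT, beside 62.3% of all shared sites, and by pileup 30 of 55 (54.5%), beside 64.1%. By locus, 5 of 12 ranked higher in WT at *Ets1*, 5 of 11 at *Fli1*, 4 of 9 at *Elf1*, 1 of 2 at *Gabpa*, 5 of 13 at *Ikzf1* and 5 of 9 at *Ikzf3*. The median difference in percentile, dKO minus WT, was 0.42 points over the 55 sites and -2.56 over all shared sites. It was 3.09 at *Ikzf1* and -3.88 at *Ikzf3*, against a range over all shared sites of -31.7 to 23.0 from the 5th to the 95th percentile. The 2 Ikaros family genes thus stood on opposite sides of the 55 sites' median, with differences that are small beside the spread between sites.

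**Figure D3:**
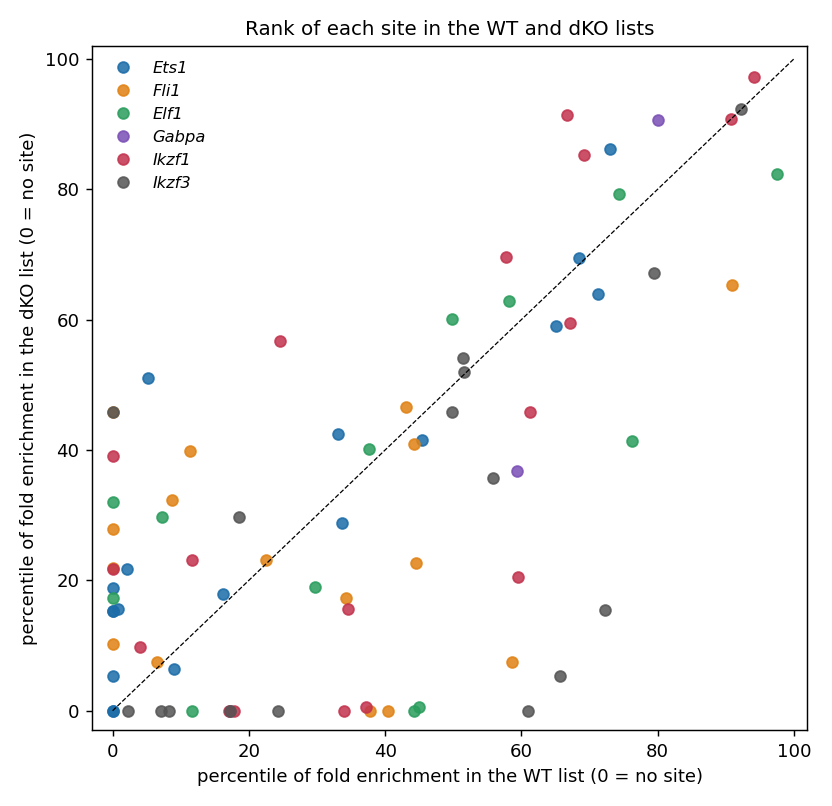
Percentile of fold enrichment of each of the 84 sites in the WT list (x axis) and the dKO list (y axis), coloured by locus, with 0 for sites not found in a list and a dashed line of equal rank. *Ikzf1*, *Ikzf3*, *Fli1* and *Elf1* have 5 shared sites at percentiles of 45 to 72.3 in WT that lie at 20.5 or lower in dKO, and the sites on the axes reach 61.0 in WT and 45.9 in dKO.

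Larger shifts went in both directions. By at least 20 percentile points, 11 shared sites ranked higher in WT (20% of the 55, beside 13.7% of all shared sites) and 6 ranked higher in dKO cells (10.9%, beside 6.75%). The interval of the relative ratio lay below 1 at 5 of the 55 sites, 9.09%, beside 5.39% of all shared sites, and above 1 at 7, 12.7%, beside 7.56%. These shares have only 5 and 7 sites behind them.

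Of the 5 sites lower in dKO cells, 1 lay at *Fli1*, 1 at *Elf1*, 1 at *Ikzf1* and 2 at *Ikzf3*. The *Fli1* intron 1 site (chr9:32325992-32326199), printed above with its CCGGAAG 17 bases from the summit, had 78 fragments in WT and 20 in dKO. Its percentile was 58.6 in WT and 7.48 in dKO, and its relative ratio of 0.38 (0.22 to 0.63) was the lowest of the 55. In intron 3 of *Ikzf1*, 40.2 kb from the TSS (chr11:11625972-11626525), there were 100 fragments in WT and 33 in dKO cells, percentiles 59.4 and 20.5 and a relative ratio of 0.49 (0.32 to 0.73). None of the 4 sequences searched occurred within 100 bp of the summits there.

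The *Ikzf3* site in intron 3 (chr11:98358728-98358902) had 57 and 18 fragments, percentiles 65.7 and 5.39 and a relative ratio of 0.47 (0.26 to 0.81), and CAGGAAG was matched on the minus strand 24 bases from its summit. Upstream of *Ikzf3*, the start site of *Zpbp2* (chr11:98412222-98412461) had 98 and 29 fragments, percentiles 72.3 and 15.4 and a relative ratio of 0.44 (0.28 to 0.67). A WT-only site lay beside it, at 4.83 kb upstream of the *Ikzf3* TSS, with 42 fragments at percentile 7.08 and a dKO peak below the criteria. The *Elf1* intron 3 site (chr14:79962668-79962861) had 43 and 16 fragments at percentiles 45 and 0.51, and the interval around its relative ratio of 0.55 ended just below 1 (0.29 to 0.997). A further *Elf1* site in intron 2, 56.4 kb from the TSS, had 108 and 52 fragments at percentiles 76.2 and 41.5, and its interval just held 1 (0.50 to 1.00036).

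The 7 sites higher in dKO cells were spread over 5 loci. Of these, the *Ets1* site 41.8 kb upstream (chr9:32401902-32402277) had 45 fragments in WT and 55 in the shallower dKO pool. Its percentile was 5.24 in WT and 51.1 in dKO, and its relative ratio of 1.81 (1.197 to 2.74) was the highest of the 55. *Fli1* had 2 such sites, both in intron 1. The site at 2.02 kb (chr9:32346902-32347357) had 42 and 51 fragments, percentiles 11.3 and 39.9 and a relative ratio of 1.80 (1.17 to 2.77). Its WT values are those of the peak with the higher fold enrichment (chr9:32346911-32347013) of 2 WT peaks there. The 1 dKO peak spanned chr9:32346902-32347349, so the WT and dKO summits may differ in position. The site at 41.8 kb had 49 and 53 fragments, 8.71 and 32.3, with 1.60 (1.06 to 2.41). The *Fli1* intron therefore held sites of both directions, with the lowest relative ratio of all 55, at 22.9 kb, lying between the 2 higher ones.

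*Ikzf1* also had 2, the intron 3 site at 33.8 kb (chr11:11619876-11620078) with 45 and 54 fragments, percentiles 24.6 and 56.8 and a relative ratio of 1.77 (1.17 to 2.70), and a site 134 kb from its TSS inside *Ddc*, the gene for aromatic amino acid decarboxylase. The latter had 60 and 62 fragments, percentiles 66.7 and 91.4 and a relative ratio of 1.53 (1.05 to 2.22). In intron 3 of *Ikzf1*, the site at 33.8 kb and the lower one at 40.2 kb thus lay on opposite sides of the median. The others were the *Gabpa* start site and an *Elf1* intron 1 site at 51.1 kb, with 79 and 77 fragments, percentiles 49.9 and 60.1 and a relative ratio of 1.44 (1.04 to 1.999). No *Ikzf3* site was among the 7. The largest rank difference towards dKO at *Ikzf3* was at a site 81.1 kb past the TSS, with 37 and 34 fragments at 18.5 and 29.8. At *Elf1* it was in intron 1 at 40.7 kb, with 32 and 35 fragments at 7.18 and 29.7, and the relative ratio of 1.62 had an interval that held 1 (0.97 to 2.70).

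**Figure D4:**
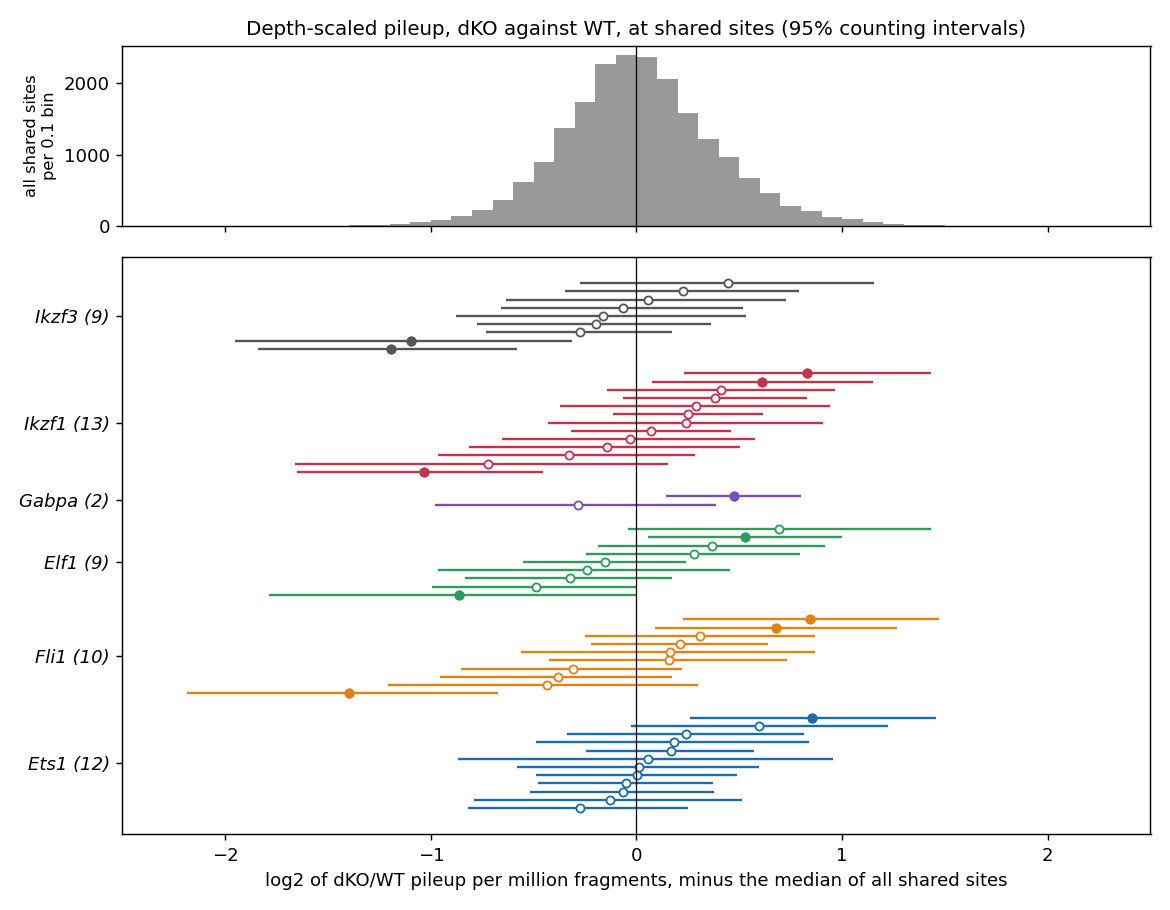
Log2 of the dKO/WT ratio of pileup per 1000000 fragments minus its median over all shared sites (x axis), as a histogram of all 20533 shared sites in steps of 0.1 (top, y axis sites per bin) and for each of the 55 sites by locus (bottom, bars are 95% exact binomial intervals for counting error). Filled points mark the 5 sites whose interval lies below 0 and the 7 whose interval lies above, and the site that *Ets1* and *Fli1* share is drawn with *Ets1*.

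The 16 WT-only sites were weak. Their pileup ran from 24 to 62 fragments with a median of 40, and their percentiles from 0.021 to 61.0 with a median of 17.3, beside a median of 24.3 over all WT-only sites. At percentile 50 or above there was 1, in intron 1 of *Ikzf3* at 18.6 kb from the TSS (chr11:98388470-98388731), with 52 fragments at 61.0 and no peak in the dKO list. Of all WT-only sites, 19.1% ranked that high. The 13 dKO-only sites had 18 to 46 fragments, with a median of 33, and percentiles of 5.39 to 45.9, with a median of 21.8 beside 18.0 over all dKO-only sites. None reached percentile 50, which 14.1% of all dKO-only sites did.

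Some of these sites had a peak in the other list that had missed the criteria. This held for 4 of the 16 WT-only sites, beside 3.91% of all WT-only sites, and for 4 of the 13 dKO-only sites, beside 14.6% of all dKO-only sites. The WT-only ones lay in *Ets1* intron 6, *Fli1* intron 1, downstream of *Elf1* and upstream of *Ikzf3*, with dKO fold enrichments of 3.08, 3.84, 3.55 and 3.21. The dKO-only ones lay in *Fli1* intron 1, at 3.011 and 51.8 kb, in *Elf1* intron 1 and in *Ikzf1* intron 3, with WT fold enrichments of 3.94, 3.48, 2.89 and 3.11. All 4 dKO-only sites of *Ets1*, and all but 1 of its WT-only sites, had no such peak.

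Both *Ets1* lists differed within introns, where all 4 dKO-only sites lay, with 18, 22, 27 and 36 fragments. The site with 36, at 94.8 kb, lay in intron 3 of a shorter transcript. The others lay in intron 2 and intron 3 of the longest transcript. Of the 4 dKO-only sites, 3 held the Runx sequence TGTGGTT, which 16.5% of all dKO-only sites held. So small a count gives no trait of this locus. Among the WT-only sites of *Ets1*, 2 lay in intron 3 of the longest transcript, with 46 and 38 fragments. The third lay in intron 6 of the shorter one, with 54. The 6 WT-only sites of *Ikzf3* ran from its upstream flank through the start site and intron 1 to introns 3 and 6, with 24 to 52 fragments, while its dKO-only site, in intron 7, had 33. That site and a shared one beside it, also with 33, were the highest in rank of the *Ikzf3* gene body in dKO, at 45.9.

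The Tcf/Lef core was matched in 0 of the 16 WT-only sites, which allows a share of up to 18.8%, beside 6.98% of all WT-only sites. Over the whole lists, it was matched in 1 of 73 WT sites (1.37%), beside 3.81% of all WT sites. In dKO it was matched in 2 of 69 sites (2.90%), beside 2.42% of all dKO sites. Merged, these were 2 of the 84 sites, both in intron 1 of *Fli1* and both printed above. At the shared one (chr9:32295055-32295264), ATCAAAG lay 14 bases from the WT summit and a Runx match 13 bases on the other side. That summit lay just outside the dKO peak. This site had 48 fragments in WT and 24 in dKO, percentiles 44.6 and 22.6 and a relative ratio of 0.74 (0.43 to 1.23). The other was the dKO-only site at 3.011 kb (chr9:32345896-32346008), with 41 fragments at percentile 21.9, the core at the edge of the window 99 bases from its summit, and a WT peak of 34 fragments below the criteria.

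For the other sequences, the intervals at the 6 loci held the shares over all sites. The Ets sequences were matched in 27.4% of the WT sites (18.5 to 38.6), beside 26.1% of all WT sites, the Ikaros sequence in 19.2% (11.8 to 29.7), beside 13.8%, and the Runx sequence in 11% (5.66 to 20.2), beside 9.67%. Among the dKO-only sites, 4 of 13 held the Runx sequence (30.8%, 12.7 to 57.6), beside 16.5% of all dKO-only sites. A match is a run of letters and not a measured binding site.

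A list of 25 other genes of both families (the annotation names *Spi1* as *Sfpi1*) had 111 WT and 95 dKO sites in the same windows. Of these, 27.0% were WT-only and 13.7% dKO-only, beside 21.9% and 18.8% at the 6 loci. A site lay within 1 kb of a TSS in both lists for 11 of the 25 genes, in WT alone for 4 (*Elf2*, *Elf5*, *Elk3* and *Ikzf4*), in dKO alone for *Sfpi1*, and in neither for 9. *Fev*, *Ehf*, *Etv1* and *Spdef* had no site at all. *Elk4* had the widest gap among these genes, with 8 WT and 3 dKO sites, of which 5 were WT-only. *Ikzf2*, which encodes Helios, had 4 and 3 sites, and *Ikzf5* had 3 and 3 with its start site at percentile 92.7 in WT and 94.0 in dKO cells.

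Genes most like each locus in the 4 counts (WT, dKO, WT-only and dKO-only sites) were ranked by the summed absolute difference over the 2 lists. For *Ets1* they were *Sgms1* (a difference of 2) and *Arfip1* (3), for *Fli1* *Ctif* (1) and *1500002O20Rik* (2), and for *Ikzf1* *Rps18* and *Vps52* (1 each). For *Ikzf3*, *AF064781* and *Gm20496* had the same 4 counts. For *Elf1*, *Adipoq* and *Atn1* were listed among 23 genes at a difference of 1 or less, and 1053 genes had the same counts as *Gabpa*.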

How the data were processed

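DNase-seq fragments of sorted naïve CD8+ T cells were aligned to mm9 and peaks were called by the authors on the pooled replicates of each genotype (3 WT, 2 dKO), with Bowtie2 2.2.5 and MACS2 2.1.1 per the submitters' processing notes. Per the file headers, MACS2 2.1.1.20160309 was run in paired-end mode with no control and a local background window of 10000 bp. Each header names 2 alignment files of the pool and gives exactly 2 times as many fragments read as kept (83923734 kept in WT, 62242963 in dKO). The authors' deposited pileup is the fragment signal at the summit, unscaled. The deposited fold enrichment is a ratio, pileup over local background, and the deposited -log10 p-value and -log10 q-value are the authors' MACS2 tests of each summit against that background. Fragment depth sets the precision, and all intervals cover counting error only.

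Peaks with q under 0.05, p under 1e-05 and a fold enrichment of 4 or more were kept. Overlapping sites were merged, and the percentile and pileup in each list are those of its peak with the highest fold enrichment. Gene models were those of gencode on NCBIM37, with distances from the longest transcript. Introns were numbered on the longest transcript of the gene that holds the summit. Sequences within 100 bp of summits were read from the NCBIM37 genome with pysam 0.24.0 and samtools 1.23.1. Software was Python 3.11.15 with scipy 1.17.1, pandas 2.3.3, numpy 2.4.6 and matplotlib 3.10.9. The overlap, merging and interval steps were tested on simulated data.

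Named sites were, per locus, the strongest at the gene's own TSS, in the gene body and outside it, sites of 1 list only at percentile 50 or above or with ATCAAAG, and the shared sites with the largest rank difference each way. Sites whose interval excluded the median, start sites of neighbouring genes, sites with a peak below the criteria in the other list and a few further sites were named in addition, after their values were seen. The genes, lists and motifs were chosen with earlier results of these data known. Alternatives were other thresholds, overlaps, windows and rankings. Read counts per replicate were not analysed here. The result of 1 further marker list is not reported here.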

Additional observations from a re-analysis of the deposited data

How the results depend on the processing

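No paired analysis was possible because the deposited lists are pools of the replicates and no test between genotypes was run, and for the same reason no replicate could be left out. Of 44 alternative values, 33 stayed within 1.5 times the reported count and 11 did not. For each of the latter the alternative itself keeps fewer peaks, narrower windows or other peaks. With a fold enrichment of at least 8 there were 30 WT and 27 dKO sites, 8 WT-only and 5 dKO-only sites, and 8 of 22 shared sites ranked higher in WT. In gene bodies only there were 46 WT and 42 dKO sites, with 13 of 32 shared sites higher in WT, and with 10 kb on either side it was 14 of 37. With the top 20000 peaks per list by -log10 p, 20 sites were dKO-only (34.5%, beside 18.9% of all) and 14 of 37 shared sites ranked higher in WT. The WT-only share crossed that of all WT sites, at 24.5% beside 19.7% with those 20000 peaks at 26.7% beside 25.9% with a fold enrichment of at least 8, and at 27.8% beside 27.6% with 10 kb on either side. The dKO-only share did so in the lists as deposited, at 13.5% beside 13.96%. The share of shared sites higher in WT was below that of all shared sites under each alternative for which both were computed, and ran from 36.4% to 60%. The Tcf/Lef core stayed at 0 WT-only sites within 50 bp of the summit, and at 0 of 8 with a fold enrichment of at least 8. The WT pool was 1.35 times as deep as the dKO pool, and the part of depth in sites of 1 list was not tested.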
